A study of Mus musculus with 23 samples.

Results

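Messenger RNA of 6 CC chemokines, Ccl3, Ccl8, Ccl9, Ccl17, Ccl20 and Ccl24, was followed across 23 mouse lungs. They were taken by gene name from the 754 genes of the myeloid panel for mice on the NanoString nCounter, an instrument that counts barcoded probes bound to transcripts with no amplification step. The panel was run on total RNA of the left lung, from which lavage fluid had been drawn before the lobe was removed. Instillation was repeated 14 times per mouse, with organic dust extract or with PBS, called saline in the labels. Fat-1 mice, which carry a Caenorhabditis elegans desaturase that makes omega-3 from omega-6 fatty acids, were compared with wild-type (WT) mice. Dust lungs came from 6 Fat-1 mice (3 female, 3 male) and 7 WT mice (4 female, 3 male), and saline lungs came from 5 Fat-1 mice (2 female, 3 male) and 5 WT mice (2 female, 3 male). The labels give no age, and neither the promoter that drives the transgene nor its RNA was analysed here. RNA extraction took place on day 1 for 8 dust and 4 saline lungs and on day 2 for 5 dust and 6 saline lungs. Groups follow the extract code, and for 4 lungs another label names a different group.

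CC chemokines are small secreted proteins with a pair of adjacent cysteines that direct leukocytes through G-protein-coupled receptors of the Ccr family. Ccl3 binds Ccr1 and draws monocytes, macrophages, granulocytes and T cells. Ccl9, a rodent chemokine, acts on myeloid cells through Ccr1, and mouse Ccl8 acts through Ccr8 on T cells. Ccl20 is the ligand of Ccr6, carried by dendritic cells and lymphocytes. Ccl17 binds Ccr4 on T cells of the type 2 and regulatory kinds, and Ccl24, an eotaxin, binds Ccr3 on eosinophils. In the airways these genes are known to be made by macrophages, dendritic cells and epithelium in differing proportions.

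Promoter windows from 250 bases before to 50 bases after the start of transcription were found for 5 of the 6 genes in RefSeq's table for build GRCm38.p6. Ccl3, Ccl8 and Ccl9 lie on chromosome 11, Ccl20 on chromosome 1 and Ccl17 on chromosome 8. Both strands were searched for the NF-kappa-B consensus, the AP-1 motif TGANTCA, the STAT6-type motif TTCNNNNGAA, the STAT-type motif TTCNNNGAA and the TATA motif TATAAA. Windows of 4 genes are shown because these genes carry the contrasts that follow: Ccl3 and Ccl9 with the highest fitted dust responses, Ccl20 with saline lungs mostly at the lowest value written in the table, and Ccl17 with high values in Fat-1 dust lungs. Capitals mark the matches, and sequences run 5′ to 3′ along each gene's strand.
Ccl3 (chr11:83649329-83649628, minus strand): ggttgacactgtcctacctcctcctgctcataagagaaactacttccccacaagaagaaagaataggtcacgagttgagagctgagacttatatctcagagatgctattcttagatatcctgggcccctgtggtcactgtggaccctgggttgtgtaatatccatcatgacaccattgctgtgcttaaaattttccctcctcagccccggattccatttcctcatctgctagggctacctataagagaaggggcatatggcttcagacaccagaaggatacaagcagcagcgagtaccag
Ccl9 (chr11:83578587-83578886, minus strand): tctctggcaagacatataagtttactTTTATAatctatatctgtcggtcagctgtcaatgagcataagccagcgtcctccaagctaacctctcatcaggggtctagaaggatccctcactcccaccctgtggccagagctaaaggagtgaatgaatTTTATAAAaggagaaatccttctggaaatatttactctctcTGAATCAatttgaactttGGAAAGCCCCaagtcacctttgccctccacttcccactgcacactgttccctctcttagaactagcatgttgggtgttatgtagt
Ccl20 (chr1:83116516-83116815, plus strand): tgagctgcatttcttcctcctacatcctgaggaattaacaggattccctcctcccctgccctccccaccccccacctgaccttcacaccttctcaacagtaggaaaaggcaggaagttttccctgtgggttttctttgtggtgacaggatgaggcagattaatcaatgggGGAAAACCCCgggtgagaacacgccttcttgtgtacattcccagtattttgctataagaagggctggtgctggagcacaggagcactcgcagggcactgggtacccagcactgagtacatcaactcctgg
Ccl17 (chr8:94810203-94810502, plus strand): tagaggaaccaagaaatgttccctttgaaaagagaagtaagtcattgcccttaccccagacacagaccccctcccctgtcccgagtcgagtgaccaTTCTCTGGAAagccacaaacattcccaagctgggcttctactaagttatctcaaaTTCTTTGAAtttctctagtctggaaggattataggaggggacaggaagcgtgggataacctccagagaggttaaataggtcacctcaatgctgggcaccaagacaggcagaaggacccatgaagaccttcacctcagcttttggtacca
The NF-kappa-B consensus was matched in Ccl9 (bases 35 to 26 before the start) and Ccl20 (80 to 71 before it), and 4.51% of the 32851 windows of this length in the table hold it. Ccl17 held the STAT6-type motif 154 to 145 bases and the STAT-type motif 99 to 91 bases before the start, which 6.95% and 8.3% of windows hold. Ccl9 also held the AP-1 motif 53 to 47 bases before the start (7.81% of windows). It had 3 TATA matches besides, of which the pair between 94 and 87 bases before the start overlap on opposite strands, and Ccl8 had 1 at 32 to 27 bases (13.6% of windows). No letters of these motifs occurred in the Ccl3 window. A match describes the sequence and says nothing of a factor's binding in these lungs.

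Values are normalized counts, that is, probe counts times a factor that scales each lung, with a floor: a count under 20 stands as the value 20, whatever the factor. In lungs with a factor under 1, a scaled value under 20 stands as 20 too. Lungs held 110453 to 812429 recovered counts, and 66 to 232 of the panel's genes were at the floor in a lung. The 6 chemokines were all above the floor in at least 1 lung and were tested among 711 such genes, and 5 of them were above it in every dust lung. Markers of lung epithelium (Cdh1 and Lamp3) and endothelium (Cdh5, Tek, Thbd and Angpt2) were above the floor in all 23 lungs. A pair of lungs carried a saturation message, Fat-1 male dust lung 1 of day 2 and WT male saline lung 1 of day 2. WT female saline lung 1 of day 2 had the strongest positive controls, and Fat-1 female dust lung 2 of day 1 had the most uneven housekeeping genes (SD 0.894 on the log2 scale, next 0.498).

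The first comparison asked how the chemokines differed between dust and saline lungs. Ccl3, Ccl9, Ccl8, Ccl20 and Ccl17 rose in dust lungs, by log2 fold changes of 1.74 to 3.14, and Ccl24 did not pass the test. In limma's test 308 of 711 genes (43.3%) rose and 379 (53.3%) passed in either direction, so that a rise was common on this panel. The median log2 fold change was 2.01 over the 6 chemokines and 0.26 over all genes. Scaling lungs to the housekeeping genes or centring them on their median log2 value moved the median of all genes to 0.12 or −0.13, and the 5 chemokines rose under both scalings, by 1.35 to 2.75 after centring. In tissue RNA, more cells of a type and more RNA per cell cannot be told apart.

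**Figure D1:**
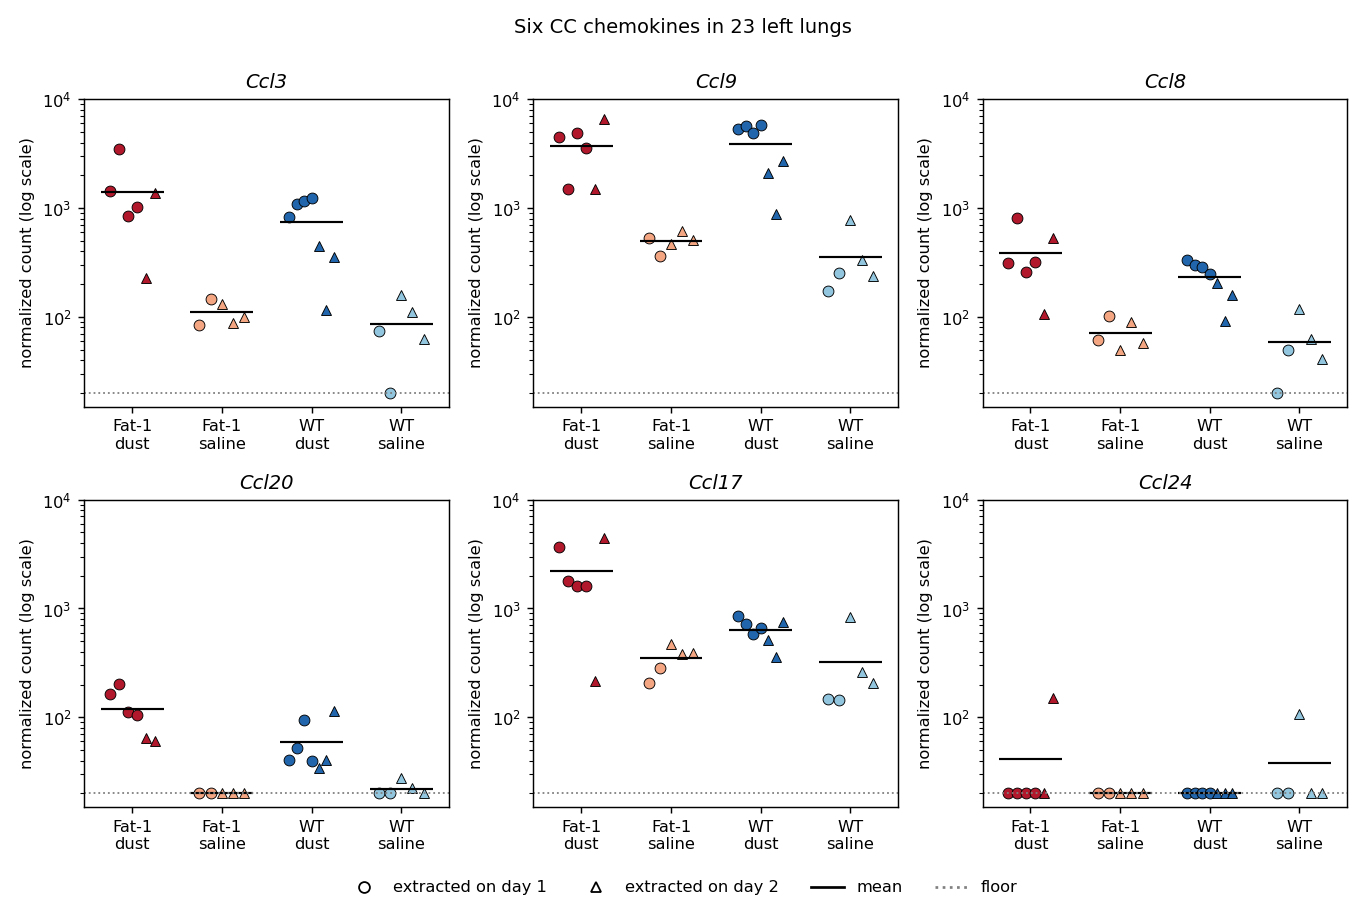
Normalized counts of the 6 chemokines in each lung on a log scale, by genotype and exposure, with circles for day 1, triangles for day 2, bars at the group mean and a dotted line at the floor of 20. All dust lungs lie above all saline lungs for Ccl9 (lowest dust lung 889.8, highest saline lung 773), 8 saline lungs are drawn at the floor for Ccl20, and Ccl24 is off the floor in 2 lungs.

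Among the ligands of Ccr1, Ccl3 lay between 117 and 3484 normalized counts in the 13 dust lungs, with a median of 1022. In the 10 saline lungs it lay between 20 and 161, with a median of 94.1. The highest value was in Fat-1 female dust lung 2 of day 1, and the lowest dust value, in WT female dust lung 2 of day 2, was the only one inside the saline range. Ccl3 averaged 1049 ± 853 in dust and 97.9 ± 41.8 in saline (SD, n = 13 and 10), a log2 fold change of 3.14 (SE 0.46, limma adjusted p = 4.96e-05), with 64 to 1474 probe counts behind the dust values.

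Ccl9, the other Ccr1 ligand, lay between 889.8 and 6647 in dust lungs (median 4464) and between 172 and 773 in saline lungs (median 417). Every dust lung was above every saline lung. The means were 3837 ± 1906 in dust and 426 ± 188 in saline, and the log2 fold change was 3.07 (SE 0.33, limma adjusted p = 5.13e-06). Fat-1 male dust lung 1 of day 2 was the highest, at 6647.

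Ccl8 lay between 91.4 and 815.5 in dust lungs (median 286) and between 20 and 119 in saline lungs (median 59.4). WT female dust lung 2 of day 2 (91.4) and Fat-1 female dust lung 1 of day 2 (107) were below the highest saline lung, and the other 11 dust lungs were above it. The means were 305 ± 190.2 in dust and 65.1 ± 29.8 in saline, a log2 fold change of 2.18 (SE 0.34, limma adjusted p = 7.9e-05).

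Ccl20, the ligand that draws Ccr6-bearing dendritic cells and lymphocytes, lay between 34.0 and 203 in dust lungs, with a median of 65.1. In saline it was at the floor in 8 of 10 lungs, and the other two, both WT of day 2, had 22.5 and 27.5. A hidden count in those 8 lungs stands for a value under a limit of 24.3 to 84.3. In most of them it could be above the lowest dust lung, so that a break between the groups is not shown. All 13 dust lungs were above the floor, from 22 to 110 probe counts, and 6 of them were above 84.3. The log2 fold change was 1.83 (SE 0.20, limma adjusted p = 5.13e-06). The size of this change depends on the floor: it was 1.00 (adjusted p = 0.00323) with floor values raised to the upper limit of a hidden count. It was 0.29 (adjusted p = 0.0394) with a common floor of 84.3 in every lung.

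Ccl17, which draws Ccr4-bearing T cells, lay between 215 and 4430.2 in dust lungs (median 748) and between 145 and 842 in saline lungs (median 272). The groups overlapped widely, since 7 of 13 dust lungs were below the highest saline lung, WT female lung 1 of day 2. It averaged 1365 ± 1296 in dust and 334 ± 209 in saline, a log2 fold change of 1.74 (SE 0.41, limma adjusted p = 0.00174).

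Ccl24, the eotaxin, was at the floor in 12 of 13 dust lungs and 9 of 10 saline lungs. It stood at 149 in Fat-1 male dust lung 1 of day 2 and at 108 in WT female saline lung 1 of day 2, from 151 and 122 probe counts. Its log2 difference was −0.06 (95% confidence interval −0.68 to 0.56, limma adjusted p = 0.881). Both lungs are among those that stand apart on technical measures. Ccl9 was the only one of the 6 in which every dust lung was above every saline lung whatever the hidden counts, as were 21 of 711 genes (2.95%).

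The second set of comparisons asked whether the response differed with genotype. Within Fat-1 mice 5 of the 6 chemokines rose, against 32.2% of all genes, and within WT mice 4 rose, against 30.7%. The log2 fold changes of dust over saline in Fat-1 and in WT were 3.28 and 3.00 for Ccl3, 2.71 and 3.43 for Ccl9, and 2.27 and 2.10 for Ccl8. For Ccl20 they were 2.37 and 1.30, and for Ccl17 they were 2.26 (adjusted p = 0.00809) and 1.22 (adjusted p = 0.104). In Fat-1 mice all 5 saline lungs were at the floor for Ccl20, so its fitted change there is no bound. With floor values at the upper limit of a hidden count Ccl20 was at 1.44 in Fat-1 (adjusted p = 0.00813) and 0.57 in WT (adjusted p = 0.225). With a common floor it was at 0.10 in WT (adjusted p = 0.75). Without WT female saline lung 1 of day 1, Ccl8 in WT was at 1.47 (limma adjusted p = 0.0514), and Ccl17 in WT was at 0.59 (adjusted p = 0.522). Without WT female saline lung 1 of day 2, Ccl17 in WT was at 1.85 (limma adjusted p = 0.0261). With Fat-1 female dust lung 1 of day 2 omitted, its adjusted p was 0.0254 at the same 1.22 (limma). Ccl17 in Fat-1 was at 2.13 without the lungs whose labels disagree (limma adjusted p = 0.0871).

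The differences between these responses, Fat-1 minus WT, passed for 0 of the 6 chemokines and 0 of 711 genes (0%) in limma's test, with 21 genes at an unadjusted p under 0.05. They were 1.07 for Ccl20 (95% confidence interval 0.23 to 1.91, unadjusted p = 0.0153, adjusted p = 0.999), 1.04 for Ccl17 (−0.67 to 2.75) and −0.72 for Ccl9 (−2.11 to 0.67). For Ccl17 it was 0.41 without WT female saline lung 1 of day 2 and 1.67 without WT female saline lung 1 of day 1, and over all 23 omissions of 1 lung it stayed between these values. For Ccl3 and Ccl8 they were 0.28 (−1.67 to 2.24) and 0.18 (−1.27 to 1.62). Intervals of this width do not show that the genotypes respond alike.

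In saline lungs the difference between Fat-1 and WT passed for 0 chemokines and 0 of 711 genes (0%), with 10 genes at an unadjusted p under 0.05 in limma's test. In dust lungs it also passed for 0 chemokines and 0 of 711 genes (0%), with 22 genes at an unadjusted p under 0.05, among them Ccl20 and Ccl17. Ccl20 averaged 118 ± 56.0 in Fat-1 dust lungs and 59.3 ± 31.6 in WT dust lungs (SD, n = 6 and 7), a log2 difference of 0.93 (95% confidence interval 0.38 to 1.48, limma unadjusted p = 0.00222, adjusted p = 0.979). Ccl17 averaged 2218 ± 1541 in Fat-1 dust lungs and 634 ± 167 in WT dust lungs, a log2 difference of 1.36 (0.24 to 2.48, limma unadjusted p = 0.0202, adjusted p = 0.979).

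The lungs behind these means differed by extraction day. On day 1, Ccl17 was at 1601, 1616, 1796 and 3650.0 in the 4 Fat-1 dust lungs, against 585, 656, 723 and 861 in the 4 WT dust lungs. Ccl20 on day 1 was at 105, 112, 164 and 203 in Fat-1 dust lungs, against 40.0, 40.2, 52.7 and 94.4 in WT dust lungs. Both genes were without overlap, as were 21 of 711 genes (2.95%) in this direction. On day 2, Ccl17 was at 215 and 4430.2 in the 2 Fat-1 dust lungs, on either side of 358, 510.3 and 748 in the 3 WT dust lungs. Ccl20 on day 2 was at 60.3 and 65.1 in Fat-1 dust lungs, inside the range of the WT dust values of 34.0, 40.2 and 113.8.

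Neither difference passed in the main fit. Both passed in 1 of 23 fits that left out 1 lung, and neither did in the other 22. Of 19 other settings both passed in 1, array weights. The Ccl20 difference was 0.39 with a common floor (limma adjusted p = 0.966) and −0.053 on day 2 alone. The lack of overlap on day 1 rested on 1 label. With Fat-1 female dust lung 1 of day 2 left out, the lung with 215 for Ccl17, Ccl17 was at 1.96 (limma adjusted p = 0.0208) and Ccl20 at 1.18 (adjusted p = 0.0169), and 5 of 710 genes passed, all of them higher in Fat-1. With array weights, which lower the influence of variable lungs, they were at 1.59 (adjusted p = 0.0127) and 1.22 (adjusted p = 0.00359), among 97 of 711 genes that passed, 31 of them higher in Fat-1. Fat-1 male dust lung 1 of day 1, with 1616 for Ccl17 and 112 for Ccl20, is Fat-1 by its extract code and WT by its other labels. By the characteristics some saline lungs also move from Fat-1 to WT. With that grouping the log2 differences were 1.32 and 0.78 (limma adjusted p = 0.994 for both). The day 1 dust groups then overlapped for both genes.

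The order of the means over genotype and exposure was Fat-1 dust, WT dust, Fat-1 saline, WT saline for Ccl3, Ccl8 and Ccl17. For Ccl3 they were 1398 ± 1111, 750.0 ± 447, 110.2 ± 27.6 and 85.6 ± 52.8, for Ccl8 389.7 ± 249, 232 ± 85.5, 71.7 ± 22.3 and 58.5 ± 37.2, and for the saline groups of Ccl17 347 ± 103 and 321 ± 295. In all 3 genes the ranges of each group and its neighbour overlapped, including WT dust and Fat-1 saline. Ccl9 had WT dust first, at 3910 ± 1966, then Fat-1 dust at 3752 ± 2015, Fat-1 saline at 498 ± 91.0 and WT saline at 354 ± 241, and the break between dust and saline was without overlap. For Ccl20, with hidden counts standing as 20, both dust means were above WT saline, at 22.0 ± 3.27, and Fat-1 saline, where every lung was at the floor. The difference of the dust response between females and males passed for 0 chemokines and 0 of 711 genes (0%) in limma's test, with 14 genes at an unadjusted p under 0.05 and none of the 6 among them.

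**Figure D2:**
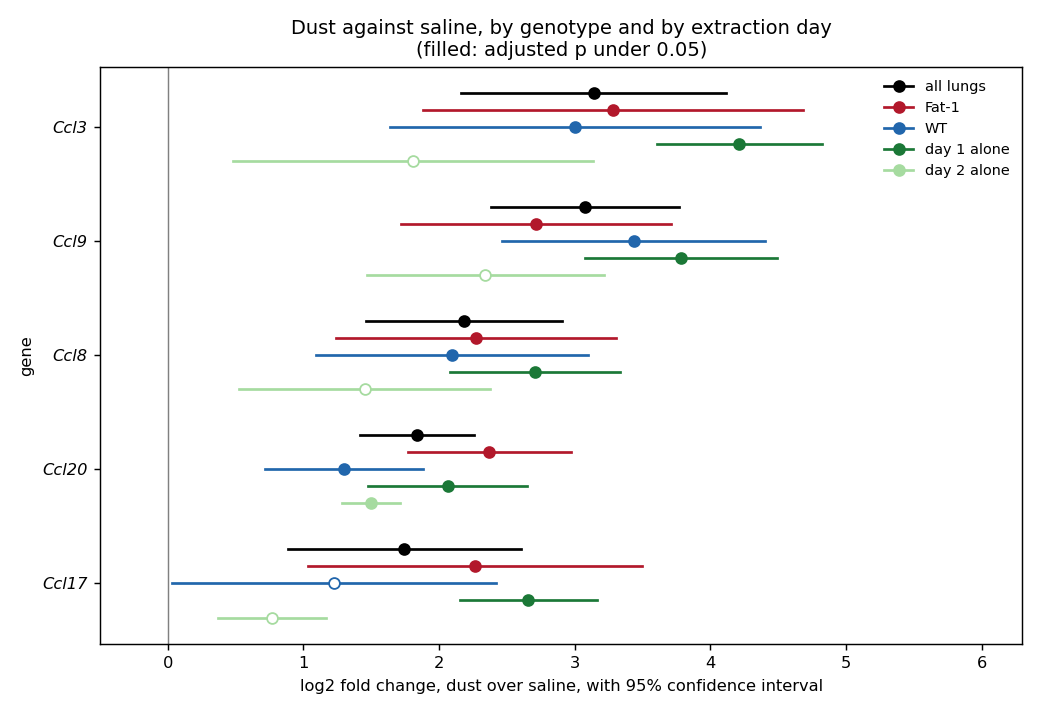
Log2 fold change of dust over saline (x axis) for 5 chemokines (y axis), with 95% confidence intervals, over all lungs, within each genotype and within each extraction day, filled where the adjusted p was under 0.05. Day 1 lies to the right of day 2 for each gene, most for Ccl3 (4.21 and 1.81) and Ccl17 (2.66 and 0.77).

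The third comparison took extraction day, since both days held dust and saline lungs of both genotypes. On day 1 alone 5 chemokines rose, against 47.2% of 704 genes in either direction. Their log2 fold changes were 4.21 for Ccl3, 3.78 for Ccl9, 2.70 for Ccl8, 2.66 for Ccl17 and 2.06 for Ccl20. Ccl24 was at the floor in all 12 lungs of that day. On day 2 alone, with 3 residual degrees of freedom, 3 of 705 genes (0.426%) passed and Ccl20 was among them, at 1.495 (limma adjusted p = 0.0313), with 4 of the 6 saline lungs at the floor and so without spread among them. The others were at 2.34 for Ccl9, 1.81 for Ccl3, 1.45 for Ccl8 and 0.77 for Ccl17 (adjusted p = 0.056 to 0.0844).

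Ccl3 shows the contrast most plainly. On day 1 it lay between 828 and 3484 in 8 dust lungs (median 1129) and was at 20, 74.5, 84.8 and 147 in 4 saline lungs. On day 2 it was at 117, 227, 353, 445 and 1383 in the 5 dust lungs and lay between 62.8 and 161 in the 6 saline lungs (median 105). All dust lungs of day 1 were thus above all but 1 dust lung of day 2, while the saline ranges of the days overlapped. For Ccl17, saline lungs had 145, 146, 208 and 282 on day 1 and 209 to 842 on day 2 (median 387), so that the smaller day 2 response of Ccl17 went with higher saline values.

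Every dust lung was above every saline lung on day 1 for Ccl3, Ccl8, Ccl9 and Ccl17 whatever the hidden counts, as for 167 of 711 genes (23.5%). On day 2 this held for Ccl9, as for 38 of 711 genes (5.34%). For Ccl20 it is not shown on either day, since hidden saline counts are bounded only by 84.3 on day 1 and 40.6 on day 2. These limits are above the lowest dust values of 40.0 and 34.0. On day 2 Ccl9 was at 889.8, 1512.5, 2114, 2729 and 6647 in dust lungs, against 238 to 773 in saline lungs (median 488). Ccl8 was at 91.4, 107, 159, 204 and 529 in dust lungs, against 40.8 to 119 in saline lungs (median 59.9). The lowest dust lungs of day 2 for Ccl8 were thus within the saline range, and those for Ccl9 were above it.

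In the test of the difference itself, day 1 minus day 2, 0 of the 6 chemokines and 12 of 711 genes (1.69%) passed. The differences were 2.41 for Ccl3 (95% confidence interval 0.94 to 3.88, limma adjusted p = 0.0912), 1.75 for Ccl17 (0.16 to 3.35), 1.41 for Ccl9 (0.10 to 2.71), 1.199 for Ccl8 (−0.03 to 2.42) and 0.62 for Ccl20 (−0.40 to 1.65). Without Fat-1 male dust lung 1 of day 2, a lung with a saturation message and the highest Ccl9 and Ccl17 values, 145 of 710 genes passed. Among them were Ccl3 at 2.98 (limma adjusted p = 0.00502), Ccl17 at 2.50 (adjusted p = 0.0135), Ccl9 at 1.86 (adjusted p = 0.0352) and Ccl8 at 1.62 (adjusted p = 0.0456). The median over all genes was 0.35 on day 1 and 0.18 on day 2. It was also lower on day 2 for markers of neutrophils (2.88 and 0.96), T cells (2.36 and 0.95), monocytes and interstitial macrophages (2.06 and 1.31), dendritic cells (0.84 and 0.53) and B cells (0.01 and −0.23). On day 2 it was higher for markers of alveolar macrophages (0.72 and 0.97), eosinophils (0.13 and 0.22), epithelium (0.13 and 0.2) and endothelium (−1.03 and −0.39). The part of these markers in the day difference was not tested.

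Among dust lungs the chemokines differed in spread. The highest dust lung was 29.8 times the lowest for Ccl3, 20.6 times for Ccl17, 8.93 times for Ccl8, 7.47 times for Ccl9 and 5.99 times for Ccl20. Of 10 pairs among the 5 detected genes, 3 were correlated over the 13 dust lungs after Benjamini-Hochberg adjustment. These lungs span both extraction days and both genotypes, whose shared shifts also enter r. Ccl3 and Ccl8 had Pearson's r = 0.946 (permutation adjusted p = 0.0001, raw p = 1e-05, the smallest its resamples can give) and Spearman's rho = 0.769 (raw p = 0.00293, adjusted p = 0.0146). Without the 2 lungs farthest from the median of Ccl3, r was 0.891. Within the 8 dust lungs of day 1, r was 0.872, but with Fat-1 female dust lung 2 of day 1 left out it was −0.09 there, so the relation within day 1 rests on that lung. Ccl9 did not pass with Ccl3 (r = 0.57, permutation adjusted p = 0.103) or with Ccl8 (r = 0.469, permutation adjusted p = 0.133). Without the same lung, r over the other 12 dust lungs was 0.95 and 0.91 for these pairs. Without the 2 lungs farthest from the median, r was −0.022 for Ccl3 and Ccl9 and 0.858 for Ccl8 and Ccl9. Within day 1, with Fat-1 female dust lung 2 of day 1 left out, these pairs were at −0.01 and −0.39.

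The other two pairs involved Ccl17. With Ccl8 it had r = 0.756 (permutation raw p = 0.00297, adjusted p = 0.0148) and rho = 0.802 (raw p = 0.00161, adjusted p = 0.0146), and r = 0.79 without the 2 lungs farthest from the median. With Ccl3 it had r = 0.702 (permutation raw p = 0.00721, adjusted p = 0.024) and rho = 0.698 (raw p = 0.00976, adjusted p = 0.0325), and r = 0.499 without the 2 farthest. Within day 1 these were lower, at r = 0.319 and r = 0.316. With Fat-1 female dust lung 2 of day 1 left out as well, they were at 0.262 and 0.197. Day 2 had 5 dust lungs, too few for a value. Ccl17 and Ccl20 were at r = 0.764 within day 1 but missed the threshold over both days (r = 0.527, permutation adjusted p = 0.125). The day 1 dust lungs were 4 Fat-1 and 4 WT lungs, and both genes were without overlap between these genotypes. In that r a relation between lungs and the genotype difference cannot be told apart.

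**Figure D3:**
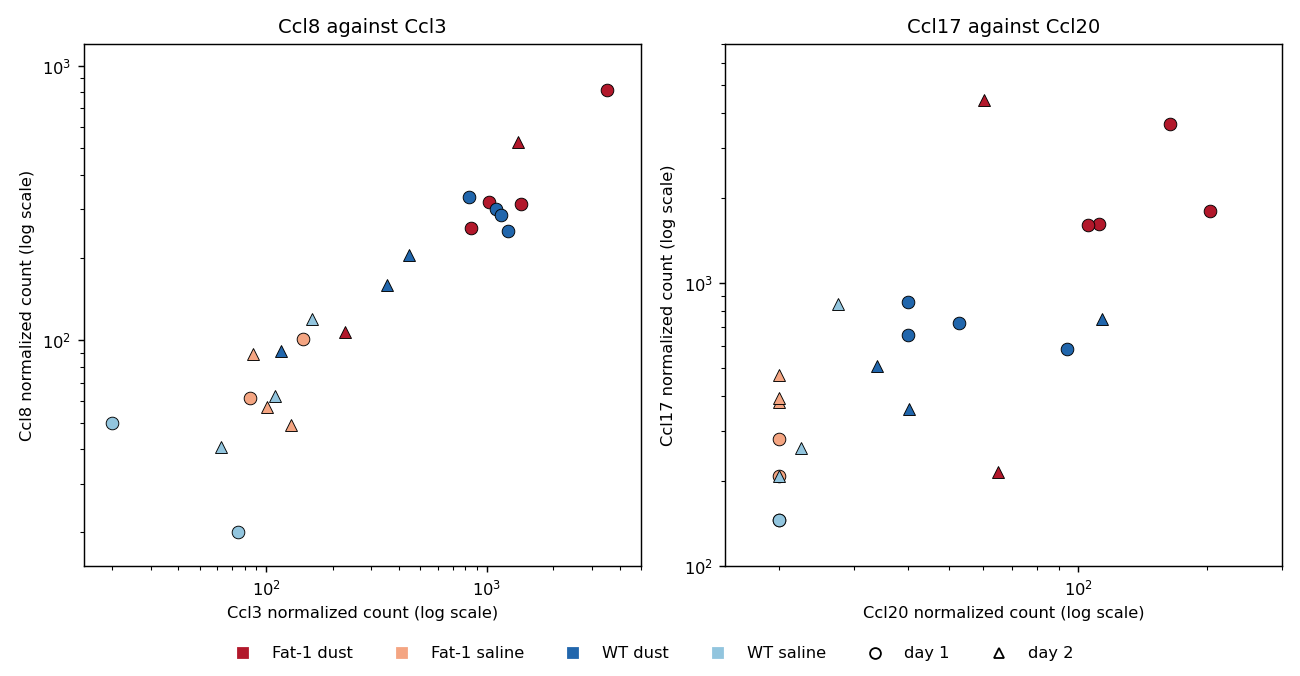
Normalized counts, on log scales, of Ccl8 (y axis) against Ccl3 (x axis) and of Ccl17 (y axis) against Ccl20 (x axis) in each lung, coloured by genotype and exposure, with circles for day 1 and triangles for day 2. The Ccl3 and Ccl8 values run together across both exposures, and in the second panel the 4 Fat-1 dust lungs of day 1 are at 1601 or more for Ccl17 and at 105 or more for Ccl20.

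The panel genes whose order over the 13 dust lungs was most like each chemokine, among 551 genes above the floor in all 13, differed between chemokines. Spearman's rho is given as a description, since all genes share the lungs, their extraction days and their scale factors. Ccl3 was nearest to the inflammasome sensor Nlrp3 and the cytokine Il1a (rho 0.962 for both) and to the interleukin 1 receptor subunit Il1rap (0.956). Ccl8 was nearest to the macrophage elastase Mmp12 (0.896), complement C3 (0.879) and the signalling inhibitor Socs1 (0.863). Ccl9 was nearest to Tapbp, which loads antigen peptides (0.923), the protease inhibitor Cstb and the pattern receptor Tlr6 (0.896 for both). Ccl17 was nearest to the neutrophil-attracting chemokines Cxcl3 (0.923) and Cxcl5 (0.89) and to Gch1, an enzyme of tetrahydrobiopterin synthesis (0.868). Ccl20 had lower likeness, with Timd4, a phosphatidylserine receptor (0.85), and with the leukotriene receptor Ltb4r1 and the transcription factor Maff (0.731 for both). Within the 8 dust lungs of day 1, rho with these genes was 0.881 to 0.905 for Ccl3 and 0.5 to 0.738 for Ccl8. It was 0.738 to 0.952 for Ccl9, 0.714 to 0.881 for Ccl17 and 0.571 to 0.929 for Ccl20.

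The other CC ligands and the receptors show where the 6 chemokines stand in their family. Of 15 further CC ligands on the panel, Ccl1 and Ccl26 were at the floor in all lungs, and of the 13 tested 8 were higher in dust and 0 lower (median log2 fold change 0.77). Over all genes 43.3% were higher, with a median of 0.26. After median centring 6 of these ligands were higher and 1, Ccl25, was lower, and with a common floor 6 were higher. The same fits had 202 and 268 of 711 genes higher. Ccl25 was at the floor in 8 dust and 9 saline lungs, where centring shifts a value written as 20. Before centring it was at 0.12. The monocyte attractants Ccl12, Ccl2 and Ccl7 rose, with log2 fold changes of 2.09, 1.67 and 1.59, or 1.17, 1.59 and 0.40 with a common floor. Ccl4, a close relative of Ccl3, rose by 1.81, though with a common floor it was at 0.38 and missed the threshold. Ccl6, a Ccr1 ligand of rodents, averaged 613 ± 184 in dust and 239 ± 63.9 in saline (log2 fold change 1.32, limma adjusted p = 5.13e-06). Ccl19, which draws Ccr7-bearing cells, averaged 193 ± 104 in dust and 66.0 ± 28.8 in saline (log2 fold change 1.51, or 0.97 with a common floor). The 5 not past the test were Ccl11, Ccl21a, Ccl25, Ccl27a and Ccl28. Ccl11, an eotaxin like Ccl24, was at 0.57 (adjusted p = 0.184).

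Of the 9 CC receptors described here, 4 rose and 0 fell, with a median of 0.20. This is near the panel as a whole, where 43.3% of genes rose, with a median of 0.26. After median centring 3 receptors were higher and 1, Ccr4, was lower, and with a common floor 2 were higher. The same fits had 202 and 268 of 711 genes higher. Ccr1, a receptor of Ccl3 and Ccl9, averaged 609.5 ± 286 in dust and 104 ± 31.9 in saline, and its log2 fold change was 2.37 (limma adjusted p = 5.0e-05). Ccr2, the receptor of the monocyte attractants, rose by 1.08 on the log2 scale and the atypical receptor Ccrl2 by 0.40, a call that was lost in 17 of 23 fits that left out 1 lung and with a common floor (limma adjusted p = 0.0531). Ccr6, the receptor of Ccl20, averaged 119 ± 67.7 in dust and 53.0 ± 21.5 in saline (log2 fold change 1.12, limma adjusted p = 0.00624). With a common floor Ccr6 was at 0.46 and missed the threshold (limma adjusted p = 0.0827). Ccr4, the receptor of Ccl17, did not pass, at 42.7 ± 14.9 and 58.1 ± 26.4 (log2 difference −0.44, limma adjusted p = 0.155, and −0.83 with adjusted p = 0.0137 after median centring). Ccr8, the receptor of mouse Ccl8, was at the floor in 7 dust and 8 saline lungs, and Ccr3, the receptor of Ccl24, in 9 dust and 7 saline lungs. Neither passed, at 0.20 and −0.03 on the log2 scale.

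**Figure D4:**
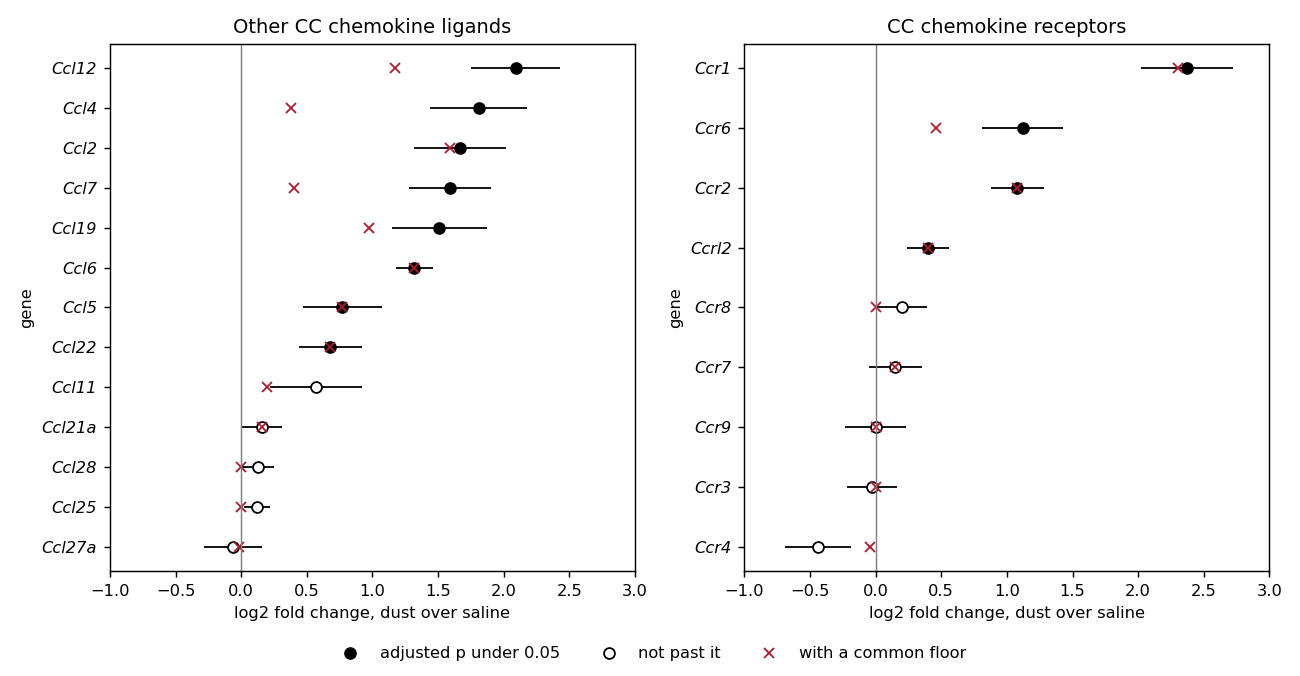
Log2 fold change of dust over saline (x axis) with its standard error for 13 other CC ligands and 9 CC receptors (y axis), filled where the adjusted p was under 0.05, with crosses for the value under a common floor in every lung. Ccl12 (2.09) and Ccr1 (2.37) stand at the top of the lists, and Ccr4 (−0.44) at the bottom of the receptors.

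Of 12 cytokines that are known to induce these chemokines in other settings, Il10 and Ifng were at the floor in all lungs, and of the 10 tested 7 were higher and 0 lower (median log2 fold change 0.94). The panel as a whole had 43.3% of genes higher and a median of 0.26. Median centring left 5 cytokines higher and a common floor left 6, against 202 and 268 of 711 genes. Il1b averaged 1234 ± 1091 in dust and 129 ± 58.1 in saline (log2 fold change 2.95, limma adjusted p = 0.000368), Il1a rose by 2.31, Tnf by 2.28, Il6 by 1.19 and Csf1 by 1.18. With a common floor Il1a was at 1.54 and Tnf at 1.38, while Il6, at 0.14, missed the threshold (limma adjusted p = 0.123). The type 2 cytokines Il4 and Il13, known inducers of Ccl17 and Ccl24, did not pass, at 0.12 and −0.20, and Il4 was at the floor in 11 dust and 9 saline lungs.

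Markers of the cells that can make or follow these chemokines moved with dust as well. For scale, 43.3% of all genes rose, with a median of 0.26. After median centring 202 of 711 genes were higher, and with a common floor 268. Of 12 monocyte and interstitial macrophage markers 11 rose (median 1.75), and their summed level was 9459 to 27180.0 in dust and 8121 to 11440.0 in saline lungs. Of 9 tested neutrophil markers 6 rose (median 1.85, sum 1636 to 41610.0 in dust and 1607 to 3557 in saline), with Elane at the floor in all lungs, Mpo in 12 dust and 10 saline lungs and Ly6g in 9 dust and 10 saline lungs. Alveolar macrophage markers rose in 6 of 8 (median 0.75, sum 6299 to 40640.0 in dust and 6774 to 20740.0 in saline), or in 3 of 8 after median centring. Dendritic cell markers rose in 4 of 6 (median 0.71, sum 479 to 1063 in dust and 410.1 to 654 in saline), and T cell markers in 3 of 3 (median 1.76, sum 113 to 815.5 in dust and 60.0 to 169.5 in saline). Both of these lists had 1 member higher with a common floor.

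Eosinophil markers rose in 1 of 4 tested, Siglecf, which alveolar macrophages also carry (median 0.12, sum 264 to 472 in dust and 219 to 311 in saline), and the granule genes Epx and Prg3 were at the floor in all lungs. Of the B cell markers 1 of 3 rose, Btk, which myeloid cells also express (median −0.01, sum 362 to 1137 in dust and 345 to 643 in saline). Lamp3 rose among the 2 epithelial markers (median 0.14, sum 8120.0 to 12950.0 in dust and 7049 to 11530.0 in saline) and 0 passed upward after median centring. All 4 endothelial markers fell, as did 71 of 711 genes (median −0.77, sum 1943 to 7922 in dust and 7238 to 9888 in saline). The part of these cell types in the chemokine results was not tested.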

How the data were processed

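Per the file headers, and as its values show, the deposited table holds a signal: probe counts scaled by 1 factor per lung. The sources used here do not give the software or the genes behind this factor. Factors read from the spacing of values ran from 0.682 to 4.21, and 100.0% of values above the floor were whole multiples of the step within 0.1 steps. Counts under 20 and scaled values under 20 stand as the value 20, so no count model was fitted. Each lung is from its own mouse. The test was limma's (version 3.58.1 under R 4.3.3) on log2(value + 1). A model of 8 group means (genotype, sex, exposure) gave two-sided tests with Benjamini-Hochberg adjustment over 711 genes above the floor in at least 1 lung, with a threshold of 0.05. The day difference was fitted with genotype and sex as additive terms. The fit was tested on simulated data with known changes. Of gene symbols, 744 of 754 were in the RefSeq table. All 6 chemokines are named. Other family genes are named by smallest p, up to 6 of each list and 5 cytokines, plus the chemokines' receptors. Ccl11, Il4, Il13 and the members of small counts were named after their values were seen. One panel gene is left unreported. The chemokines and all lists were chosen with earlier results of these data known. Tables and plots were made in Python 3.11.15 (numpy 2.4.6; pandas 2.3.3; plots by matplotlib 3.10.9).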

Additional observations from a re-analysis of the deposited data

Results flagged for a closer look

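Of 48 checks for a lung that lies apart from its group, 9 found one, and they fall on 4 lungs. The checks use the same lungs both by genotype and by day. For Ccl24 any lung off the floor is flagged, since all others of its group stand at 20. The count of 9 is thus not set against a chance rate. Fat-1 female dust lung 2 of day 1 was the highest of the 8 day 1 dust lungs for Ccl3 (3484, next 1425) and Ccl8 (815.5, next 331) and the lowest for Ccl9 (1484, next 3549). The same lung had the most uneven housekeeping genes, and the part of that in these values was not tested. Fat-1 female dust lung 1 of day 2 was the lowest of the Fat-1 dust lungs for Ccl17, at 215 against 1601 in the next. Fat-1 male dust lung 1 of day 2, with a saturation message, was the only dust lung with Ccl24 off the floor (149), apart from its group both by genotype and by day. WT female saline lung 1 of day 2 was the only saline lung with Ccl24 off the floor (108), again by genotype and by day, and its Ccl20 value was the highest written for a day 2 saline lung (27.5, next 22.5). The 4 other day 2 saline lungs were at the floor, where a hidden count stands for at most 24.3 to 40.6, so that the order of that last one is not known.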

How the results depend on the processing

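Over 23 fits that each left out 1 lung, the 5 chemokines kept passing in dust against saline (Ccl3 2.92 to 3.42, Ccl8 1.87 to 2.50, Ccl9 2.80 to 3.34, Ccl17 1.43 to 2.06, Ccl20 1.75 to 1.96). The number of chemokines past the threshold was then 0 to 2 for Fat-1 against WT in dust, 0 to 4 for the day difference and 3 to 5 for dust in WT. Ccl24, at −0.36 to 0.24, changed sign without 3 single lungs (0.057, 0.057, 0.24), and Ccr3 without 5 (0.15, 0.072, 0.002, 0.002, 0.10). With the replicate block, the 5 chemokines still passed (Ccl3 2.68, Ccl8 1.89, Ccl9 2.96, Ccl17 1.67, Ccl20 1.80) and Ccl24 was at 0.043, while 277 of 711 genes passed, against 379. Of 8 same-numbered pairs 2 had correlated deviations over 0.1 (−0.17 to 0.35). With so few lungs in a group, deviations from its mean depend on each other. The check therefore cannot tell whether the numbers paired the lungs.

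In lungs of day 2 alone, Ccl20 was the 1 chemokine past the threshold in dust against saline (3 of 705 genes), and 2 passed in Fat-1, Ccl20 and Ccl24. The 1 chemokine past it in WT, in Fat-1 minus WT, in Fat-1 against WT in dust and in Fat-1 against WT in saline was Ccl24, which with Ccl17 also made up the 2 in female minus male. These Ccl24 values (−1.19 in WT, 1.42 in Fat-1, 2.61 in Fat-1 minus WT) come from 2 lungs that are each alone in their group on that day, with every other lung at the floor, and carry no information on spread; 1 to 8 of 705 genes passed in these fits. Ccl3 was then at 1.81, Ccl8 at 1.45, Ccl9 at 2.34, Ccl17 at 0.77 and Ccl24 at 0.12, and Ccl20 in Fat-1 against WT in dust at −0.053. Array weights gave 2 chemokines in Fat-1 against WT in dust (97 of 711 genes) and 3 in the day difference (144 of 711). Leaving out the 2 lungs with a saturation message gave 3 in the day difference (108 of 710 genes), and leaving out the 4 lungs that stand apart gave 2 (74 of 702), with Ccl17 in Fat-1 minus WT at −0.10 and Ccl20 in the day difference at −0.006. These omissions, and floor values at their ceiling, were chosen after seeing the data. That ceiling put Ccl20 in the day difference at −0.40 and Ccr8 at −0.25, and median centring put Ccr8 at −0.19. Ccl24, near 0 throughout, turned positive with a common floor (0.023), groups from the characteristics (0.21), without the lungs whose labels disagree (0.057) and with day as a block (0.06). Ccr3 turned positive with groups from the characteristics (0.22), without the lungs whose labels disagree (0.24), in day 2 (0.14), with the additive model (0.022) and without the 4 lungs (0.071). The cause of these changes was not tested. Ccl17 in WT passed with groups from the characteristics (1.46, adjusted p = 0.0297). Counts under 20 and scaled values under 20 are hidden, so levels of Ccl20, Ccl24, Ccr3 and Ccr8 are limited by depth.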

Other observations

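The 2 lungs with detectable Ccl24 shared further genes that few lungs showed. Besides Ccl24, 5 genes were above the floor in both of them and in at most 5 lungs of the 23. Prg2, an eosinophil granule protein, was at 90.9 in Fat-1 male dust lung 1 of day 2 and 38.2 in WT female saline lung 1 of day 2, with 47.3 as the highest value elsewhere. P2rx1, a purine receptor, was at 41.5 and 32.9 in the same 2 lungs, Cd209e, a lectin, at 48.4 and 35.5, Msc at 26.7 and 24.0, and the type 2 cytokine Il4 at 21.8 and 23.1. These lungs had low scale factors (0.989 and 0.888), at which values just above the floor stay visible. Low factors were also found in WT male dust lung 1 of day 1 (0.859), WT female dust lung 2 of day 1 (0.924) and WT male saline lung 1 of day 2 (0.682). Ccl24 was at the floor in these lungs. In every other lung a hidden Ccl24 count stands for a value under 84.3, below both detected values. The part of the scale factors was not tested. WT female saline lung 1 of day 2 was the highest of the 10 saline lungs for Ccl3, Ccl8, Ccl9, Ccl17 and Ccl24, and Fat-1 male dust lung 1 of day 2 the highest of the 13 dust lungs for Ccl9, Ccl17 and Ccl24.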
